A study of Mus musculus with 15 samples.

Results

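The mitochondrial genome of the mouse carries 37 genes: 13 protein-coding genes, 2 ribosomal RNA genes and 22 transfer RNA genes. All 37 were found among the 54532 rows of the expression table as the genes that GENCODE M21 places on chromosome MT of GRCm38, and they were compared by class and as shares of the mitochondrial total. The series measured RNA of 15 kidneys, 5 per group, from male C57BL/6 mice aged 8 weeks at the start. Control mice (C) ate a normal diet and received vehicle by gavage. CKD model mice (M) ate 0.25% adenine, which injures the tubules, for 4 weeks and then a standard diet until week 8, with the same vehicle. AA mice received the adenine course together with 30 mg/kg of asiatic acid, a plant triterpenoid, by daily gavage through all 8 weeks. The M and AA groups therefore both carried the adenine injury, and they differed in asiatic acid.

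The mitochondrial genome is read from promoters in its non-coding region, on both strands, into long transcripts that cover nearly all of its genes. The transfer RNAs lie between most of the other genes, and their excision releases the messenger and ribosomal RNAs. The proteins are subunits of complexes I, III and IV of the respiratory chain and of the ATP synthase, complex V, and every other protein of mitochondria comes from nuclear genes. The kidney tubule, above all its proximal part, is among the tissues richest in mitochondria, because sodium reabsorption consumes much ATP.

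Messenger RNA was enriched by poly-A selection before sequencing, a step that favours transcripts with a poly-A tail. Values are FPKM, fragments scaled by gene length and library, as deposited. Depth recovered from the steps between FPKM values was between 13647000 and 28874300 fragments per library, known only up to a factor of 2. Of these, between 9607640 and 18207200 lay on mitochondrial genes. The libraries of M mice 1 to 3 stood apart, with 10068 to 12222 genes above 0, against 23040 and 25460 in M mice 4 and 5 and 18695 to 25251 in the C and AA groups. Tests of the M group were therefore repeated with M mice 4 and 5 alone. Defining kidney markers were present in all C libraries, where the summed FPKM of 15 proximal tubule markers, most of it from Kap, was 3235 to 13529. The labels number 5 kidneys per group and give no batch and no further origin, so p-values measure the spread between these samples.

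Of the 37 genes, 16 were above 0 in all 15 libraries and 21 were listed at 0 in every library. The 13 protein-coding and 2 ribosomal RNA genes were all detected. Of the 22 transfer RNA genes, 14 lie on the plus strand and 8 on the minus strand, and mt-Tp, the transfer RNA for proline, was the only transfer RNA listed above 0. Transfer RNA genes are 59 to 75 bases long. Of the 21 at 0, 20 lie between other genes with at most 32 gene-free bases on either side. The genome is circular, and its non-coding region lies between mt-Tp (chrMT:15356-15422, minus strand) and mt-Tf (chrMT:1-68, plus strand), the transfer RNA for phenylalanine, which was at 0. The part of length and position in this pattern was not tested. The sequence of mt-Tp, from the GENCODE M21 transcripts, is shown because it alone stands for its class in these data.
mt-Tp: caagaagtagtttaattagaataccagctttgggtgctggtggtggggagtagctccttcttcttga

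Some mitochondrial genes have copies in the nuclear genome that match them at all or nearly all aligned bases. A block of 7 unprocessed pseudogenes lies on chromosome 1, from Gm28439 (chr1:24611535-24612410, minus strand) to Gm29216 (chr1:24615706-24616197, minus strand). It repeats mt-Nd4l, mt-Nd3, mt-Co3, mt-Atp6, mt-Co2, bases 1 to 876 of the 1378 of mt-Nd4 and the 3′ part of mt-Co1. Of these copies, 5 matched the mitochondrial gene at every aligned base. Gm28438 differed from mt-Nd3 at 1 base of 345, and Gm29216 from mt-Co1 at 6 bases of 492. The start of mt-Nd3 and a stretch of mt-Co1 (its bases 1054 to 1113) are shown beside their copies because they hold mismatches. Capitals mark the bases that differ.
mt-Nd3: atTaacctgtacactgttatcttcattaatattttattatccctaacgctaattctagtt
Gm28438: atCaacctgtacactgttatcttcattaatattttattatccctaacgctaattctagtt
mt-Co1: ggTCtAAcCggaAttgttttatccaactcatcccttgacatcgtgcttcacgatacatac
Gm29216: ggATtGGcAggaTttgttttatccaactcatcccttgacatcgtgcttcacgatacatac

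The table listed these nuclear copies at high values. Of the summed fragments of mt-Co2 and Gm28661, 19.7% to 69.7% were listed on the nuclear copy, depending on the library. The share was 15.8% to 62.2% for mt-Co3 and Gm28437, 19.8% to 60.4% for mt-Atp6 and Gm10925, 22.6% to 69.2% for mt-Nd3 and Gm28438, and 39.1% to 73.5% for mt-Nd4l and Gm10222. For mt-Nd4 and mt-Co1 it was at most 1.08% and 0.731%. The levels of mt-Co2, mt-Co3, mt-Atp6, mt-Nd3 and mt-Nd4l are thus uncertain by at least the amount assigned to a copy. For mt-Nd4 and mt-Co1 that amount was small. Of their 31-base words, however, 62.8% and 63.9% also occur in nuclear transcripts, so the listed amount does not bound their uncertainty. How fragments that match both places were counted was not tested. Mitochondrial genes outside these 7 pairs have no copy in the table that shares 50% of its 31-base words with them. On the deposited scale, all 7 copies had positive fitted log2 fold changes in both adenine-fed groups against C, with 1 called higher in M, Gm10222, and 5 in AA, where 0.269% and 10.2% of all tested genes were called higher. Against C, M mice 4 and 5 alone gave no call for Gm10222 (1.80 ± 0.48, adjusted p 0.173) and a negative value for Gm28437 (-0.41).

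**Figure D1:**
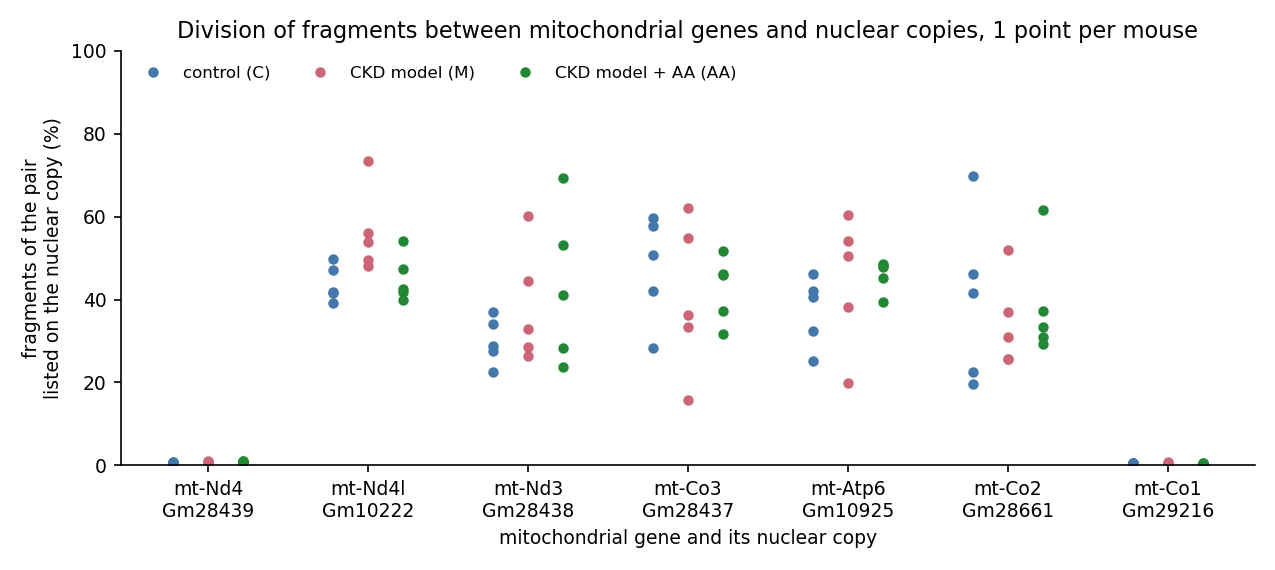
Share of the fragments of each pair listed on the nuclear copy (vertical axis, %), for 7 mitochondrial genes and their copies (horizontal axis), with 1 point per mouse coloured by group. The points of mt-Nd4 and mt-Co1 lie near 0. Those of the other 5 pairs run from 19.7% to 69.7% in C, 15.8% to 73.5% in M and 23.7% to 69.2% in AA.

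Mitochondrial genes held more of the sequenced fragments in both adenine-fed groups than in controls. In the C group they held 61.7%, 55.7%, 53.0%, 62.5% and 61.3% of the fragments in mice 1 to 5. In the M group the values were 86.0%, 84.8%, 86.8%, 72.9% and 64.0%, and in the AA group 81.2%, 87.2%, 80.1%, 69.2% and 79.9%. Every M and AA library lay above every C library, and the M and AA groups overlapped. The means were 58.8% ± 4.23 in C, 78.9% ± 10.1 in M and 79.5% ± 6.49 in AA (SD, n = 5 each). The highest M values came from mice 1 to 3, whose libraries also listed the fewest genes, and M mice 4 and 5 were nearest to the C group. In bulk tissue, fewer cells of a type and less RNA per cell cannot be told apart.

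**Figure D2:**
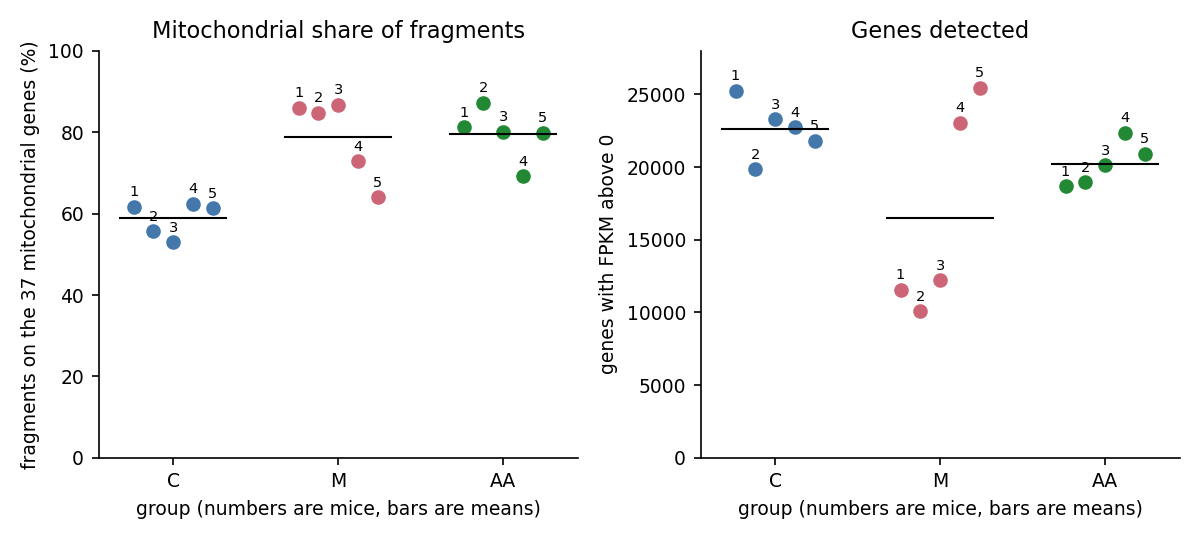
Left, percent of fragments on the 37 mitochondrial genes in each mouse; right, number of genes with FPKM above 0. Points are single mice numbered 1 to 5 within C, M and AA, and bars are group means. All M and AA points on the left lie above 62.5%, the highest C value, and M mice 1 to 3 list at most 12222 genes, fewer than the other 12 libraries.

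RNA of kidney cell type markers also differed between the adenine-fed groups and C. All 15 proximal tubule markers had lower fitted values in M than in C and 9 were called lower (limma, adjusted p of 0.05 or less with a log2 fold change of 1 or more in size), where 1.11% of all tested genes were called lower, with a summed FPKM of 111 to 578 in M against 3235 to 13529 in C. In the AA group 10 of the 15 were called lower than in C, where 9.61% of all tested genes were, and the sum was 199 to 620. Most of the sum in every library was the gene Kap, at 2779 to 10538 FPKM in C, 81.2 to 500 in M and 126 to 486 in AA. The sums therefore mainly follow Kap. Slc34a1, the sodium phosphate transporter of the proximal tubule, differed by -5.65 ± 0.85 (log2, SE) between M and C with an adjusted p of 0.0155, and by -3.79 ± 0.87 with an adjusted p of 0.124 with M mice 4 and 5 alone. Up to 6 of the 15 markers were at 0 in an M library, up to 1 in an AA library and none in a C library. The summed FPKM of 12 leukocyte markers was 27.2 to 273 in C, 238 to 473 in M and 165 to 258 in AA, with 3 called higher in M and 6 called higher and 1 lower in AA than in C (0.269% of all tested genes were called higher in M vs C). Of 8 fibroblast and myofibroblast markers, 1 was called higher in M and 6 in AA than in C. Called lower in M and AA were 3 and 4 of 8 collecting duct markers and 1 and 2 of 8 markers of the loop of Henle and distal tubule. In AA vs C, where 10.2% of all tested genes were called higher and 9.61% lower, 1 of 6 endothelial markers was called lower, of 5 red blood cell markers 2 were, and of 6 podocyte markers 1 was called higher and 1 lower. None of these markers was called with M mice 4 and 5 alone against C, where 14 genes of 21153 were, and all 15 proximal tubule markers still had negative values, with a median of -1.89 and 12 at an unadjusted p under 0.05. The part of these shifts in the mitochondrial values was not tested.

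As listed, the mitochondrial protein-coding genes spanned several orders of magnitude per unit of length. The genes mt-Nd4l and mt-Nd4 lie on the same messenger RNA, as do mt-Atp8 and mt-Atp6. Gaps within these pairs are therefore not differences between messenger RNAs. In the C group, mt-Cytb, the only mitochondrially encoded subunit of complex III, had the highest mean level, 71364 ± 14908 FPKM (SD, n = 5). It was followed by mt-Co1, the catalytic subunit of complex IV, at 60184 ± 11861, mt-Nd1 at 49803 ± 11765, mt-Nd2 at 39982 ± 9472 and mt-Nd4 at 35427 ± 8266, the last 3 being membrane subunits of complex I. These neighbours overlapped in range. The next genes were mt-Nd5 (14433 ± 2989) and mt-Nd6 (13400 ± 3755), also of complex I, whose ranges overlapped each other and lay below those of the 5 leading genes.

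The remaining genes were listed far lower. The ribosomal RNAs mt-Rnr1 and mt-Rnr2 had means of 4108 ± 1571 and 2908 ± 1160 FPKM in C, and mt-Tp had 2580 ± 651 FPKM. Among them were the 5 genes with a large part listed on a nuclear copy, mt-Co2 at 3181 ± 1190, mt-Atp6 at 2285 ± 1107, mt-Co3 at 2046 ± 823, mt-Nd3 at 821 ± 219 and mt-Nd4l at 167 ± 39.7 FPKM. The mean of mt-Co2 lay between those of the ribosomal RNAs. The lowest was mt-Atp8 at 7.91 ± 5.85 FPKM, a small subunit of complex V whose gene (chrMT:7766-7969) shares its last 43 bases with mt-Atp6 (chrMT:7927-8607). These shared bases are shown because they are part of both genes and cannot be assigned to either.
mt-Atp8 end: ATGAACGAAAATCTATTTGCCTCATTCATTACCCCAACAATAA

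In both adenine-fed groups mt-Co1 had the highest mean level instead of mt-Cytb. The library kit was not described as stranded, and fragments of mt-Nd6 (chrMT:13552-14070), the only protein-coding gene on the minus strand, cannot be told apart from antisense RNA of the plus-strand transcript. The same holds for mt-Tp, also on the minus strand, so its values need not be those of the mature transfer RNA.

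**Figure D3:**
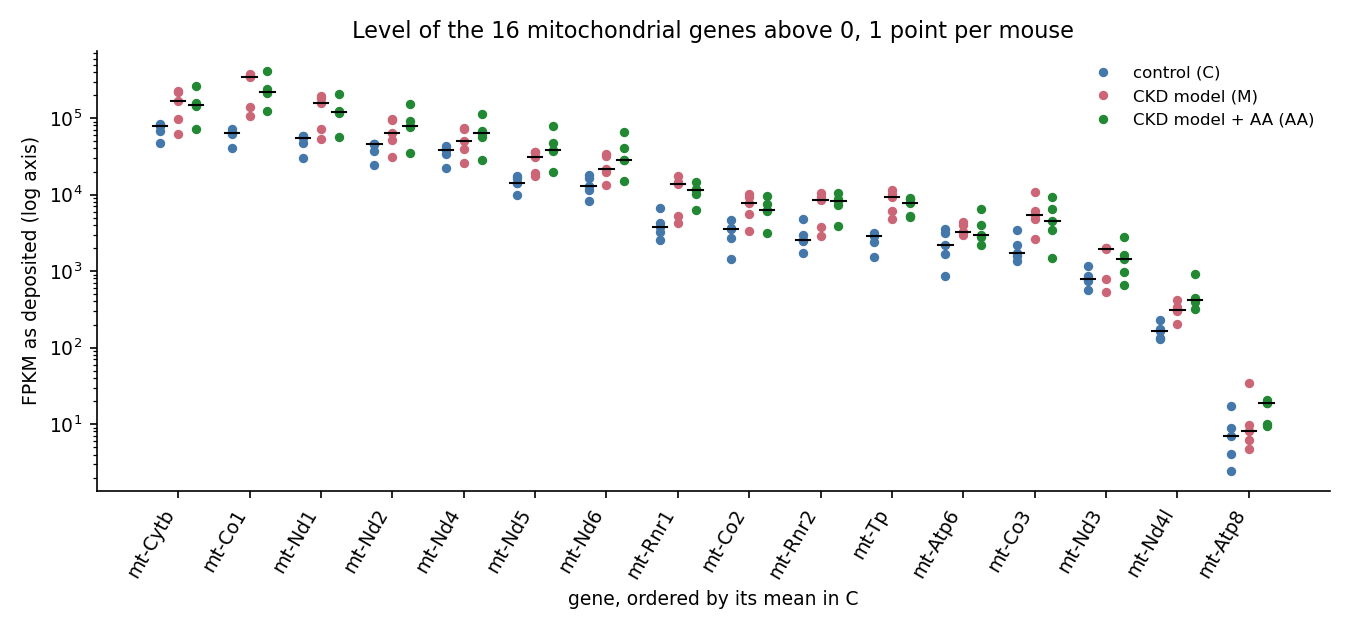
FPKM as deposited (vertical log axis) of the 16 mitochondrial genes above 0, ordered by their mean in C, with 1 point per mouse for C, M and AA and black bars at group medians. M and AA medians lie above the C median for all 16 genes, and the points of the 3 groups overlap for most genes.

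Whether adenine changed the level of mitochondrial transcripts was asked by comparing M with C. All 16 tested genes had a positive log2 fold change in M on the deposited scale, with a median of 0.95, but none was called by limma, where 1.38% of all 21153 tested genes were (9 of the 16 had an unadjusted p under 0.05). The median over all tested genes was -0.12. When each library was scaled to the same total (TPM), only 7 of the 16 were positive, their median was -0.07 and the median of all genes moved by -0.45. Hence 9 of the 16 changed sign between the deposited scale and TPM. On the deposited scale M mice 4 and 5 alone gave a median of 0.48, and 14 of the 16 were positive, while mt-Nd3 (-0.30) and mt-Nd4 (-0.11) turned negative. For M mice 1 to 3 alone the median was 1.42, 15 were positive and 10 were called.

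The gene with the largest difference was mt-Co1 (ENSMUSG00000064351, chrMT:5328-6872, plus strand). Its level in C mice 1 to 5 was 60961, 63242, 40127, 71373 and 65218 FPKM. In M mice it was 368602, 348068, 375279, 139190 and 105038 FPKM. The groups did not overlap, and M mice 4 and 5 were nearest to C. Here and below, the part of all tested genes without overlap is not given, so non-overlap only describes a gene. The log2 fold change was 1.99 ± 0.55 (SE) with an adjusted p of 0.0957. For M mice 4 and 5 alone it was 1.03 ± 0.61 with an adjusted p of 0.578, and for M mice 1 to 3 alone it was 2.62 with an adjusted p of 0.00403.

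The values of the transfer RNA gene mt-Tp did not overlap either between M and C. This gene had 2880, 3148, 1537, 2370 and 2967 FPKM in C mice 1 to 5 and 10068, 11380, 9234, 6062 and 4723 FPKM in M mice. The log2 fold change was 1.65 ± 0.40 with an adjusted p of 0.0637, and 1.097 ± 0.46 with an adjusted p of 0.391 for M mice 4 and 5 alone. For mt-Nd5 all M libraries (17585 to 36144 FPKM) were above all C libraries (9720 to 17388 FPKM), with a log2 fold change of 0.92 ± 0.42 and an adjusted p of 0.299 (0.72 ± 0.54 for M mice 4 and 5 alone). The other 13 genes overlapped between the groups. Their adjusted p ranged up to 0.655, the value of mt-Atp8.

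Whether asiatic acid changed these levels was asked by comparing AA with M. None of the 16 genes was called by limma, where 12.8% of all 19798 tested genes were, and none had an unadjusted p under 0.05. Log2 fold changes ran from -0.34 for mt-Co3 to 0.59 for mt-Nd4l, 10 were positive, and the median was 0.10 against 0.17 for all genes. For mt-Co1 the difference was -0.049 ± 0.46 (SE). The SE of the 16 genes was 0.36 or more, so differences of a size that moved other genes past the threshold could have been missed. With M mice 4 and 5 alone the median was 0.90, and with M mice 1 to 3 alone it was -0.41. The median thus changed sign with the M libraries used.

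AA mice were also set against C mice, a comparison that shares its AA libraries with the previous one and its C libraries with the first. All 16 genes were positive and 10 were called higher in AA, 10 of 37 members, where 19.8% of all 21898 tested genes were called and 10.2% were called higher. The median of the 16 was 1.19 against 0.09 for all genes. Called genes were mt-Co1, mt-Co2, mt-Nd1, mt-Nd4l, mt-Nd5, mt-Nd6, mt-Cytb, both ribosomal RNAs and mt-Tp. Under TPM the median was 0.11, 10 of the 16 were positive and none was called (3 had an unadjusted p under 0.05), while the median of all genes moved by -0.48. The 6 that turned negative under TPM included mt-Co2 (-0.065) and mt-Cytb (-0.061).

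Levels of mt-Co1 in AA mice 1 to 5 were 240572, 414906, 214572, 124938 and 221612 FPKM, all above the C values. The log2 fold change from C was 1.94 ± 0.36 with an adjusted p of 0.00222. Under TPM it was 0.83 with an adjusted p of 6.34e-05, below the fold threshold.

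The groups AA and C did not overlap for mt-Nd4l, mt-Nd5 and mt-Tp either, again without the part of all tested genes beside it. For mt-Nd5, AA mice had 46617, 78858, 37857, 19673 and 36814 FPKM against 14250, 14203, 9720, 17388 and 16602 in C, and the log2 fold change was 1.49 ± 0.37 (adjusted p 0.00892). The value of AA mouse 4 was nearest to the C group. For the ribosomal RNAs the log2 fold change was 1.43 ± 0.33 for mt-Rnr1 (adjusted p 0.00635) and 1.42 ± 0.35 for mt-Rnr2 (adjusted p 0.00863), and the groups overlapped in C mouse 5 for both. For mt-Tp it was 1.47 ± 0.30 (adjusted p 0.00341).

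Of the genes not called between AA and C, mt-Nd2 had a log2 fold change of 1.02 ± 0.40 with an adjusted p of 0.0626, and mt-Atp8 had 1.07 ± 0.41 with an adjusted p of 0.0611. For mt-Nd3, mt-Nd4 and mt-Atp6 the values were 0.73, 0.81 and 0.75. For mt-Co3, the value was 1.13 with an adjusted p of 0.0702.

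**Figure D4:**
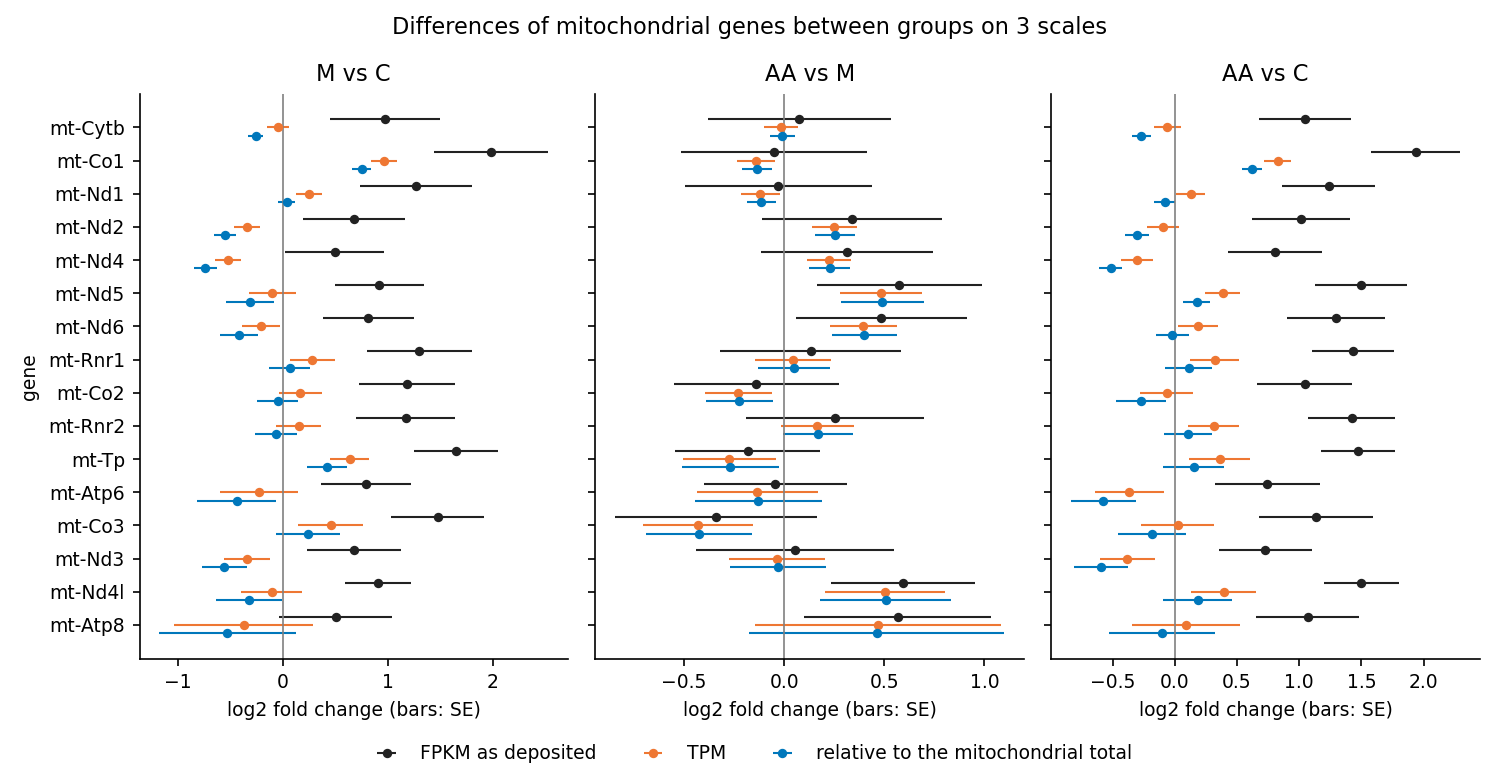
Log2 fold changes with SE bars of the 16 genes (vertical axis) for the 3 pairs of groups, on the deposited scale (black), under TPM (orange) and relative to the mitochondrial total (blue). For both adenine-fed groups against C the black points of all 16 genes lie right of 0, whereas the orange points of 7 and 10 genes and the blue points of 5 and 6 genes do (M, then AA).

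Since the libraries differ in how much of them was mitochondrial, each gene was also expressed as a share of the summed FPKM of the 37 genes, which does not depend on how a library was scaled. The messenger RNAs held 95.5% to 97.6% of this sum in all 15 libraries and the ribosomal RNAs 1.84% to 3.24%. The composition of the messenger RNAs differed between adenine-fed and control kidneys. A larger part was mt-Co1, and smaller parts were mt-Nd4, mt-Nd2 and mt-Cytb. Shares sum to 100%, so a larger share of mt-Co1 lowers the others by itself. The tests were therefore repeated, after the data were seen, with the sum taken without mt-Co1.

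The share of mt-Co1 was 20.8%, 19.0%, 20.9%, 20.9% and 18.4% in C mice 1 to 5. In M mice it was 34.4%, 39.4%, 34.8%, 28.8% and 31.8%, and in AA mice 29.7%, 30.6%, 30.1%, 33.3% and 29.8%. Every M and AA value was above every C value, and M and AA overlapped. Relative to the mitochondrial total, M exceeded C by 0.75 ± 0.091 (log2, SE) with an adjusted p of 0.00108, and AA exceeded C by 0.62 ± 0.080 with an adjusted p of 4.47e-05. The difference from C was 0.60 ± 0.15 with an adjusted p of 0.110 for M mice 4 and 5 alone. Against the sum without mt-Co1, it exceeded C by 1.03 ± 0.11 in M and 0.82 ± 0.082 in AA (adjusted p 0.000833 and 7.64e-06).

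The share of mt-Nd4 (chrMT:10167-11544, plus strand) was 11.5%, 11.97%, 11.5%, 11.2% and 12.2% in C mice. It was 6.93%, 5.59%, 6.68%, 8.09% and 7.93% in M mice and 8.23%, 8.41%, 7.99%, 7.63% and 8.66% in AA mice. No M or AA value reached the C range. The log2 difference was -0.74 ± 0.11 between M and C (adjusted p 0.00232) and -0.51 ± 0.093 between AA and C (adjusted p 0.000566). It was -0.54 ± 0.15 (adjusted p 0.167) for M mice 4 and 5 alone. Against the sum without mt-Co1 both calls held, at -0.47 ± 0.099 in M and -0.31 ± 0.085 in AA (adjusted p 0.0156 and 0.0119).

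The share of mt-Nd2 (chrMT:3914-4951, plus strand) was 12.7% to 13.9% in C, 7.26% to 10.5% in M and 9.37% to 11.4% in AA. Its log2 difference from C was -0.56 ± 0.11 in M (adjusted p 0.00627) and -0.30 ± 0.094 in AA (adjusted p 0.0190). The share of mt-Cytb (chrMT:14145-15288, plus strand) was 22.8% to 24.4% in C, 18.6% to 20.7% in M and 19.2% to 20.1% in AA, with log2 differences of -0.26 ± 0.073 (adjusted p 0.0349) and -0.27 ± 0.075 (adjusted p 0.0108). Neither gene was called against the sum without mt-Co1, where mt-Nd2 differed by -0.28 ± 0.093 in M (adjusted p 0.0835) and -0.096 ± 0.086 in AA, and mt-Cytb by 0.015 ± 0.079 and -0.063 ± 0.070. A lower share of mt-Cytb was thus not detectable among the genes other than mt-Co1. As shares of the whole sum, the differences of M mice 4 and 5 alone from C were -0.40 ± 0.15 for mt-Nd2 (adjusted p 0.354) and -0.28 ± 0.14 for mt-Cytb (adjusted p 0.544). The mt-Cytb call in M vs C was kept in 3 of 10 fits that each left out 1 library, and those of mt-Co1, mt-Nd4 and mt-Nd2 in all 10. For mt-Nd3, whose level is divided with a nuclear copy, the log2 difference between AA and C was -0.59 ± 0.22 (adjusted p 0.0404), a call kept in 3 of 10 fits that each left out 1 library and lost when the fragments of the nuclear copies were added or mt-Co1 was left out of the sum.

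In all, 1 of the 16 genes was called higher and 3 lower as a share in M vs C, and 1 higher and 4 lower in AA vs C (adjusted p at most 0.05, no fold threshold). Divided in the same way by the mitochondrial total, 0.142% of all tested genes were called higher and 12.8% lower in M vs C, and 3.88% higher and 36.1% lower in AA vs C. The 4 of 16 called lower in AA vs C are a smaller part than that of all genes. Nearly all of those genes are nuclear, divided by a mitochondrial total with a higher mean in M and AA than in C. These parts are therefore not like measures. Without mt-Co1 in the sum, mt-Co1 and mt-Tp were called higher and mt-Nd4 lower in M, and mt-Co1 and mt-Nd5 higher and mt-Nd4 lower in AA. There mt-Tp differed by 0.70 ± 0.19 (adjusted p 0.0457) and mt-Nd5 by 0.38 ± 0.11 (adjusted p 0.0143). With M mice 4 and 5 alone, none of the 16 was called in M vs C, although 5 had an unadjusted p under 0.05. The share of mt-Nd1 (chrMT:2751-3707, plus strand) was 15.7% to 17.3% in C, 15.1% to 18.0% in M and 15.03% to 16.3% in AA. Its log2 difference was 0.033 ± 0.084 between M and C and -0.081 ± 0.083 between AA and C, both below the threshold of the test.

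**Figure D5:**
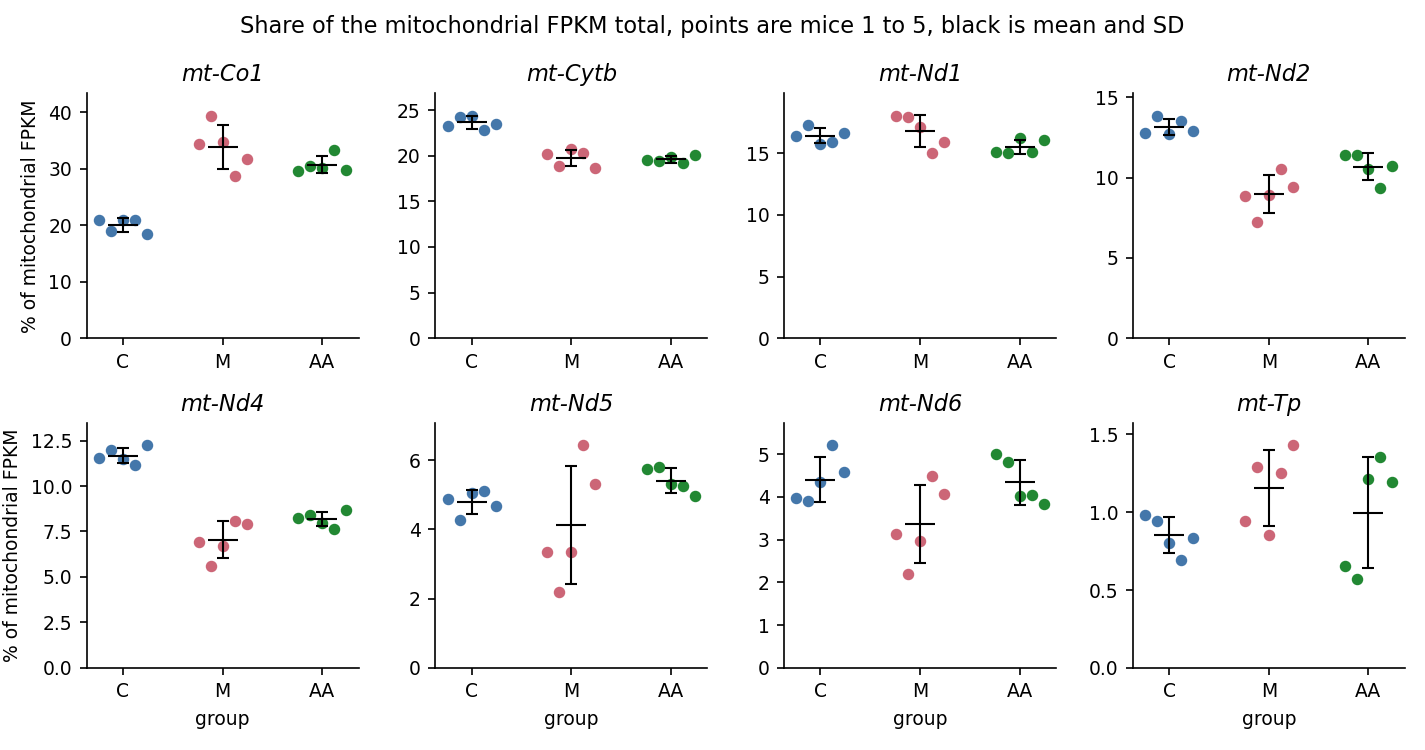
Percent of the summed FPKM of the 37 mitochondrial genes held by 8 of them in C, M and AA, with points for mice 1 to 5 from left to right and black marks for mean and SD (n = 5). The M and AA points of mt-Co1 lie at 28.8% or above, over all C points, those of mt-Nd4, mt-Nd2 and mt-Cytb lie below all C points, and the M points of mt-Nd5 run from 2.19% to 6.43%.

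Summed by complex, the 7 messenger RNAs of complex I held 49.7% to 51.6% of the mitochondrial FPKM in C, 35.4% to 44.8% in M and 41.6% to 45.7% in AA. The 3 of complex IV held 20.0% to 22.8% in C, 31.2% to 40.8% in M and 31.2% to 34.5% in AA. For both complexes the C group overlapped neither of the other groups. The 2 of complex V held 0.299% to 1.31% over all libraries, with overlap between all groups. Nearly all of the complex IV sum was mt-Co1, with mean shares of 20.0% in C, 33.8% in M and 30.7% in AA. Mean shares in this order were 1.03%, 0.973% and 0.835% for mt-Co2 and 0.691%, 0.823% and 0.593% for mt-Co3, neither called as a share. The larger share of mt-Co1 lowers that of complex I by itself, and complex sums without mt-Co1 were not tested.

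As shares, AA and M did not differ by any call. None of the 16 genes passed in limma, where 0.0960% of all tested genes did (0.0909% higher and 0.00505% lower), and 4 had an unadjusted p under 0.05. These were mt-Nd5 (0.49 ± 0.21, log2 difference of AA from M and SE), mt-Nd6 (0.40 ± 0.16), mt-Nd2 (0.26 ± 0.10) and mt-Nd4 (0.23 ± 0.10), with adjusted p from 0.158 to 0.228. The share of mt-Nd5 was 3.34%, 2.19%, 3.35%, 6.43% and 5.32% in M mice 1 to 5, so that M mice 1 to 3 lay below the C range of 4.27% to 5.10% and M mice 4 and 5 above it. The AA range was 4.96% to 5.81%. With M mice 4 and 5 alone the log2 difference of mt-Nd5 was -0.11 ± 0.15, and that of mt-Nd6 was 0.013 ± 0.16. With M mice 1 to 3 alone that of mt-Nd5 was 0.89 ± 0.16 with an adjusted p of 0.00107.

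Ratios of neighbouring genes set values from 1 stretch of the genome against each other. For separate RNAs they test whether these changed unequally, which a ratio within 1 messenger RNA cannot show. All ratios were compared as log2 ratios by two-sided exact permutation tests, adjusted over 12 tests, with a smallest possible p of 0.00794. The ribosomal RNAs leave the same precursor, and mt-Rnr2 to mt-Rnr1 was -0.50 ± 0.070 in C, -0.63 ± 0.11 in M and -0.51 ± 0.12 in AA (mean log2 ratio, SD, n = 5). The difference between M and C was -0.13 (exact p 0.0635, adjusted p 0.254). For mt-Nd6 to mt-Nd5, genes on opposite strands that share 14 bases, the ratio was -0.13 ± 0.13 in C, -0.23 ± 0.21 in M and -0.32 ± 0.084 in AA, and AA differed from C by -0.20 (exact p 0.0397, adjusted p 0.238).

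For mt-Nd4l to mt-Nd4, which share 7 bases and leave the precursor as 1 messenger RNA, the ratio was -7.71 ± 0.39 in C, -7.30 ± 0.31 in M and -7.02 ± 0.34 in AA. Of the fragments of mt-Nd4l and Gm10222, 39.1% to 73.5% were listed on that copy. The difference in this ratio between AA and C was 0.69 (exact p 0.00794, adjusted p 0.0952). When the fragments of the nuclear copies were added to the mitochondrial genes, a choice made after the data were seen, it was 0.73 with an adjusted p of 0.0476, and the difference between M and C was 0.80 with an adjusted p of 0.0476. For mt-Atp8 to mt-Atp6, also 1 messenger RNA, differences between groups were 0.61 or less in size and no adjusted p was below 0.495. Recovered depth on mt-Atp8 was only 10 to 207 fragments per M library, known up to a factor of 2. None of the 12 comparisons passed the adjusted threshold as deposited, and 2 had an exact p under 0.05.

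The nuclear genes that serve the mitochondrial genome were read on the deposited scale. Tfam, which packages mitochondrial DNA and starts its transcription, had 1.98 ± 0.37 FPKM in C, 2.62 ± 1.17 in M and 1.505 ± 0.798 in AA (SD, n = 5), and was not called in any comparison. Polrmt, the RNA polymerase of mitochondria, had 3.02, 10.2, 4.36, 4.67 and 6.64 FPKM in C mice and 0.353 to 0.967 FPKM in AA mice. Every AA value was below every C value, and the log2 fold change was -1.93 ± 0.27 with an adjusted p of 0.000562. In M mice it was 0.589, 1.02, 0.880, 3.75 and 6.38 FPKM, low in mice 1 to 3 only, and the log2 fold change from C was -1.12 ± 0.45 with an adjusted p of 0.244 (-0.10 ± 0.40 for mice 4 and 5 alone). AA differed from M by -0.80 ± 0.41 (adjusted p 0.199), and from M mice 4 and 5 alone by -1.82 ± 0.32 (adjusted p 0.00935).

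Of 20 genes for mitochondrial transcription and DNA maintenance, 9 were called lower and none higher in AA than in C, where 9.61% of all tested genes were called lower. The median of the list was -0.42 against 0.09 for all genes. Beside Polrmt they were the helicase gene Twnk, the single-strand binding protein gene Ssbp1, the protease gene Lonp1 (-2.28 ± 0.34, log2, SE), the topoisomerase gene Top1mt and the termination factor genes Mterf1a, Mterf1b, Mterf2 and Mterf3. Of the 20 genes, 2 to 4 were at 0 in each AA library and none in a C library. In AA the median FPKM was 0 for Mterf1b and Mterf2 and 0.0395 for Mterf1a. Fragments outside the mitochondrial genes were 12.8% to 30.8% of AA libraries and 37.5% to 47.0% of C libraries. The part of depth in these calls was not tested. None of the 20 was called in M vs C, and 17 had negative fitted values, with a median of -0.37, whereas with M mice 4 and 5 alone 10 were negative and the median was -0.011. In AA vs M, where 11.7% of all tested genes were called higher and 1.07% lower, the rRNA methyltransferase gene Tfb1m was called higher (1.32 ± 0.37, adjusted p 0.0247), and 2 of its 5 M values were 0. It was not called against M mice 4 and 5 alone (0.77 ± 0.33, adjusted p 0.169).

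Of 29 genes for mitochondrial RNA processing and stability, 28 were tested. Of these, 9 were called lower (9.61% of all tested genes were) and none higher in AA than in C, with a median of -0.72. They included Elac2, which cuts transfer RNAs at their 3′ end, the RNA-degrading pair Supv3l1 and Pnpt1, the transfer RNA modifying enzymes Trmu and Pus1, the ribosomal RNA methyltransferase gene Mrm3, and Fastk, Fastkd1 and Tbrg4 of the FASTK family of RNA-binding proteins. Fastk, whose mitochondrial isoform is known for maintaining mt-Nd6 RNA, had 14.6 to 40.0 FPKM in C, 2.23 to 16.9 in M and 0.857 to 2.46 in AA, a log2 fold change of -3.29 ± 0.30 between AA and C. Against M, Fastk (-1.59 ± 0.49), Trmu (-1.13 ± 0.31) and Pnpt1 (-1.05 ± 0.34) were called lower in AA, where 1.07% of all tested genes were. Against M mice 4 and 5 alone Fastk (-2.86 ± 0.32) and Trmu (-1.79 ± 0.18) were called and Pnpt1 was not (-1.24 ± 0.37, adjusted p 0.0630). In AA, Trmu had a median of 0 and at most 0.101 FPKM, so its SE comes from values at the floor. Mrm3, called lower against C, also had a median of 0 in AA. Of the 29 genes, 2 to 8 were at 0 in each AA library and 1 in each C library. The part of depth in these calls was not tested. The mitochondrial endoribonuclease gene Lactb2 was called lower in M than in C (-1.45 ± 0.33, adjusted p 0.0497), where 1.11% of all tested genes were called lower. It was called higher in AA than in M (1.42 ± 0.34, adjusted p 0.0119), where 11.7% of all tested genes were called higher. Both calls were lost with M mice 4 and 5 alone, at -1.37 ± 0.44 (adjusted p 0.245) and 1.34 ± 0.42 (adjusted p 0.0785). Lrpprc, which stabilises mitochondrial messenger RNAs, was at 2.10 ± 0.66 FPKM in C, 1.30 ± 0.66 in M and 1.86 ± 0.92 in AA and was not called.

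Of 16 regulators of mitochondrial content, none was called in M vs C and 2 were called lower in AA than in C, the nuclear receptor gene Esrra (-2.41 ± 0.46) and the mitochondrial deacetylase gene Sirt3 (-1.58 ± 0.25). These 2 of 16 are close to the 9.61% of all tested genes called lower. Ppargc1a, a coactivator that drives mitochondrial biogenesis, was not called, with means of 2.00 ± 0.80 FPKM in C, 1.03 ± 0.51 in M and 1.45 ± 0.75 in AA. Against M, where 11.7% of all tested genes were called higher, Ppargc1b (1.29 ± 0.37), a coactivator related to Ppargc1a, was called higher in AA. It was at 0 in 2 of the 5 M libraries. It was not called against M mice 4 and 5 alone (0.56 ± 0.34, adjusted p 0.324).

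Nuclear subunits of the same complexes had mostly negative fitted values in the adenine-fed groups. Of 83 nuclear oxidative phosphorylation genes, 79 were tested. In AA vs C, 36 were called lower and 1 higher (Cox7a2l, named after its value was seen), where 9.61% of all tested genes were called lower and 10.2% higher, with a median of -0.95, beside a median of 1.19 for the 16 mitochondrial genes on the same scale. In M vs C, 4 were called lower (Ndufa1, Ndufa5, Ndufa13 and Uqcrq) and none higher, where 1.11% of all tested genes were called lower, 71 of 79 had negative values, and the median was -0.75. For M mice 4 and 5 alone none was called (52 had an unadjusted p under 0.05), 75 had negative values and the median was -0.87. For complex I, 22 of 38 nuclear subunits were called lower in AA than in C and none higher, whereas the mitochondrial subunits mt-Nd1, mt-Nd4l, mt-Nd5 and mt-Nd6 were called higher. For complexes III, IV and V, 4 of 9, 5 of 15 and 5 of 17 tested subunits were called lower. In AA vs M none of the 79 was called by limma in either direction (6 had an unadjusted p under 0.05), and with M mice 4 and 5 alone 3 were called higher and 1 lower, where 2.34% and 6.32% of all tested genes were. The difference between nuclear and mitochondrial subunits was not itself tested, and the values of both move with the scaling of the libraries.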

How the data were processed

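The authors trimmed reads with fastp, aligned them with HISAT2 2.0.5 and counted them with featureCounts 1.5.0-p3 (versions and mm10 from the submitters' processing notes), and deposited FPKM, 1 column per kidney. FPKM times gene length sums to 0.435 to 1.93 times the total that FPKM implies, while median log2 deviations over 7207 genes above 0 in all libraries were -0.00284 to 0.12, so libraries share a level of common genes and not a total.

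Here limma 3.58.1 in R 4.3.3 (lmFit, eBayes with trend) was run on log2(FPKM + 1) of the 10 libraries compared, for genes above 0 in at least 5, with Benjamini-Hochberg adjustment over all genes tested. Log2 fold changes are on this scale and understate changes of low genes. Calls needed an adjusted p of at most 0.05 and, except relative to the mitochondrial total, a log2 fold change of at least 1 either way. Ratios were tested by exact permutation. Fits were tested on simulated data. Nuclear lists were refitted with M mice 4 and 5 alone, a choice made after the data were seen. GENCODE M21 matched 54495 of 54532 rows. Mitochondrial protein and ribosomal RNA genes are named throughout, transfer RNAs if called or high, nuclear list genes if called, and Tfam, Polrmt, Lrpprc and Ppargc1a always. Members, lists and tests were chosen with earlier results of these data known. The values of 1 regulator of mitochondrial content are not reported here.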

Additional observations from a re-analysis of the deposited data

Results flagged for a closer look

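Each group of 5 libraries was searched for a library far from the other 4, by its gap to the nearest library divided by the range of the group (Dixon's ratio, limit 0.71). Of 99 groups, 6 passed, and chance passes about 1 in 20. In M mouse 4, mt-Atp8 had 34.6 FPKM against 4.69 to 9.74 in the other M mice (ratio 0.831). In AA mouse 2, mt-Nd4l had 907.9 FPKM against 322.6 to 439.1 (ratio 0.801). As shares of the mitochondrial total, mt-Rnr1 was 1.88% in C mouse 5 against 1.12% to 1.33% (ratio 0.724), and mt-Rnr2 was 1.36% in the same mouse against 0.775% to 0.904% (ratio 0.779). The share of mt-Rnr2 was 1.20% in M mouse 2 against 0.788% to 0.865% (ratio 0.811), and that of mt-Co1 was 33.3% in AA mouse 4 against 29.7% to 30.6% (ratio 0.757).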

How the results depend on the processing

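Counts of mitochondrial genes called by limma changed with the setting. On the deposited scale, M vs C went from 0 (9 at an unadjusted p under 0.05) to 2 with a mean FPKM of at least 1, with all 15 libraries in 1 fit, without the intensity trend, with centring on library medians and with scaling to the total outside the mitochondrial genome, to 1 or 6 with voom on recovered reads (library size of all genes or of genes outside the mitochondrial genome), and to 10 with M mice 1 to 3 only. AA vs M went from 0 to 1 with M mice 1 to 3 only. AA vs C went from 10 to 6 with a pseudocount of 0.1, 4 with genes above 0 in any library, 0 under TPM, 1 with quantile normalization and 1 with voom over all genes. Leaving out 1 library gave 0 to 3, 0 to 0 and 6 to 13 (3 without M mouse 5, 6 without AA mouse 1). Relative to the mitochondrial total, M vs C went from 4 to 2 with genes above 0 in any library, 9 with library quality weights, 0 with M mice 4 and 5 only and 7 with M mice 1 to 3 only; AA vs M from 0 to 7, 1 and 5 with weights, M mice 4 and 5 and M mice 1 to 3; and AA vs C from 5 to 3 with a pseudocount of 0.1, 1 with genes above 0 in any library, 3 without the trend and 3 with mt-Co1 left out of the total, an alternative chosen after seeing the data, where mt-Cytb turned to 0.015 in M vs C. Leaving out 1 library gave 3 to 4, 0 to 0 and 4 to 5. In AA vs C the log2 fold change turned to -0.065 for mt-Co2 and -0.061 for mt-Cytb under TPM and to -0.44 for mt-Cytb under quantile normalization. The share of fragments differed by 20.1, 0.64 and 20.7 percentage points (M vs C, AA vs M, AA vs C), by 9.61 and 11.1 with M mice 4 and 5 only in the first and second, and by 11.8 as a share of FPKM in the last; leaving out 1 library gave 18.1 to 23.8, -3.08 to 3.22 and 18.8 to 23.3. With M mice 4 and 5 only, the log2 ratio of mt-Nd6 to mt-Nd5 differed by 0.13 (AA vs M), mt-Atp8 to mt-Atp6 by 0.55 (M vs C) and -0.23 (AA vs M), and mt-Nd4l to mt-Nd4 by -0.020 (AA vs M). With nuclear copies added, also chosen after seeing the data, mt-Nd4l to mt-Nd4 differed by 0.80, -0.078 and 0.73. Leaving out 1 library, mt-Rnr2 to mt-Rnr1 differed by -0.17 to -0.10 in M vs C and -0.042 to 0.039 in AA vs C. The causes were not tested.

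Same-numbered libraries had deviations that correlated between -0.13 and 0.22. No pairing by number was seen, which does not exclude one, and the main tests used none. With the replicate number as a block, AA vs C had 6 genes called and M vs C 0 on the deposited scale, and 5 and 3 relative to the mitochondrial total; a ratio could then not go below an exact p of 0.0625. Depth did not limit the 16 genes above 0 except mt-Atp8, and transfer RNAs at 0 cannot be compared.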
